A study of Mus musculus with 6 samples.

Results

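The Notch pathway was examined in neural stem cells (NSCs) through 10 of its genes: the receptors Notch1, Notch2 and Notch3, the ligands Dll1, Dll3 and Jag1, and the transcription factors Hes1, Hes5, Hes6 and Hey1. These were found by symbol among the 53110 genes of the deposited table, and all 10 were present with values. The cells were primary NSCs from the embryonic mouse cortex, grown as adherent cultures with EGF and bFGF in an incubator at 21% O2. One group was wild type (WT) at Setd5, and the other was Setd5 +/-, heterozygous cells made with CRISPR-Cas9. Setd5 encodes a SET-domain protein linked to chromatin and transcription elongation, and its loss on one allele causes a neurodevelopmental disorder.

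Notch signalling passes a signal between touching cells. A Delta or Jagged ligand on one cell pulls on a Notch receptor of its neighbour, ADAM proteases and the gamma-secretase complex then cut the receptor, and its freed intracellular domain joins the DNA-binding protein RBPJ to switch on genes of the Hes and Hey families. In the embryonic cortex, HES1 and HES5 repress proneural genes and keep neural progenitors undifferentiated, and the proneural factors in turn activate Dll1.

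The labels list 3 samples per genotype, but these did not behave as separate cultures. Between samples of one genotype, the chi-square of the read pairs per degree of freedom was 0.961 to 0.986 in 6 comparisons, so they differed by less than sampling noise, and it was 34.85 to 34.98 in the 9 comparisons across genotypes. The column names also carry 1 index and 1 lane per genotype, both differing between the genotypes, and the mutant columns name a single clone, A3. Each genotype was therefore counted as 1 library (n = 1), with 30004634 reads on genes in WT and 21435546 in Setd5 +/-. Genotype, clone, culture, library and lane cannot be told apart here, no difference has a replicate check, and the 95% intervals given below cover counting error only. Setd5 itself was at 2676 normalized counts in the WT library and at 2065 in the mutant one, with no overlap of the samples (log2 ratio −0.37, interval −0.44 to −0.30). Of 10 NSC markers, a list that includes Hes5, all passed the expression filter used below. Their levels differed between the libraries. The intervals of 6 were below 0, among them Nes (log2 ratio −0.29) and Sox2 (−0.19). Those of 3 were above 0, Vim (0.60), Hes5 (0.43) and Pax6 (0.40). Prom1, with 89 reads in WT and 6 in the mutant, and Fabp7 were more than 2-fold lower. Among all 16266 genes past that filter, 5173 intervals were above 0 and 5223 below 0, and 6.34% of the genes were at least 2-fold lower. The markers summed to 74436 to 74654 normalized counts per WT sample and 54027 to 54769 per mutant sample. Fabp7 alone went from 36015 in WT to 11490 in the mutant, a larger drop than that of the sum. Vim went from 9095 to 13822. The part of these markers in the values below was not tested. The samples of a genotype add up to 1 library, so their spread below is that of sampling reads. Normalized counts are reads divided by a size factor per sample, and a log2 ratio always means the Setd5 +/- library over the WT library.

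Of the 10 genes, Notch1 and Notch2 were more than 2-fold higher in the Setd5 +/- library and Hes1 was more than 2-fold lower. The other 7 differed by less: Dll1, Hes5, Hey1, Notch3 and Hes6 were higher, and Dll3 and Jag1 were lower. Over all 16266 genes tested, those averaging 10 or more normalized counts across samples, 16.9% were past 2-fold, 10.6% higher and 6.34% lower, against 2 higher and 1 lower among the 10. The median log2 ratio of the 10 was 0.19, and that of all tested genes was −0.02. The counting interval left out 0 for all 10, above it for 7 and below it for 3. Over all 16266 tested genes, it was above 0 for 5173 and below 0 for 5223. By limma with Benjamini-Hochberg adjustment, which here compares the reads of the 2 libraries and not the genotypes, all 10 were also past an adjusted p-value of 0.05, as were 61.3% of all tested genes. Since so many genes differed between these libraries by that measure, the sizes of the ratios are described below rather than the calls.

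**Figure D1:**
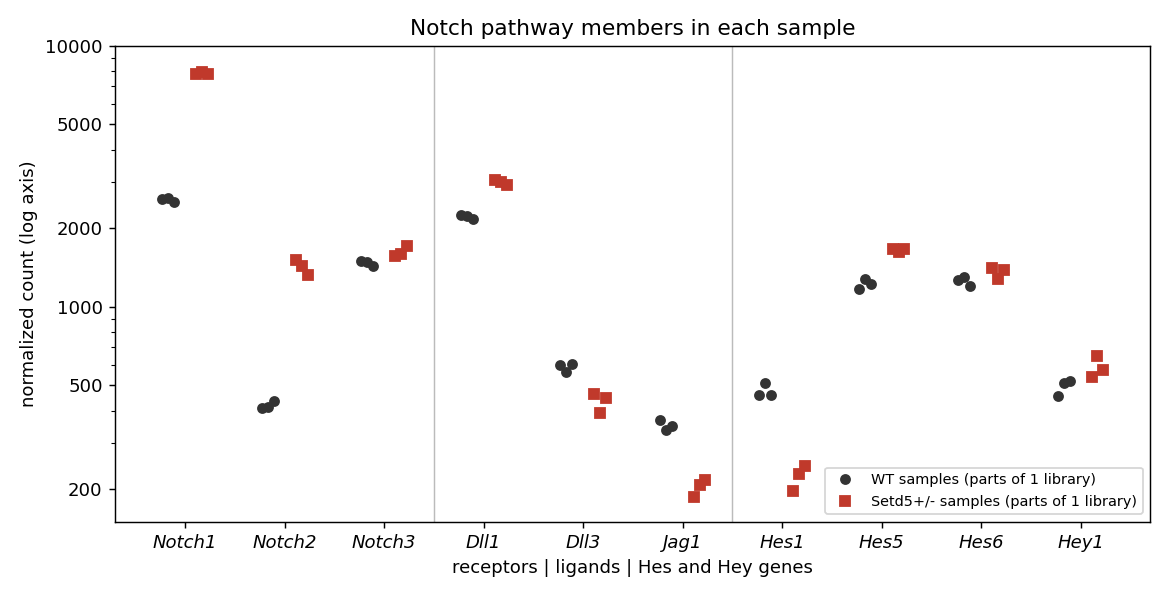
Normalized counts (log axis) of the 10 genes in each of the 3 WT samples (circles) and 3 Setd5 +/- samples (squares), which are parts of 1 library per genotype. Notch1 and Notch2 stand well above WT in the mutant samples and Hes1 below, while the Hes6 values of the genotypes overlap.

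Notch1 (ENSMUSG00000026923), the main Notch receptor of cortical progenitors, lies on chromosome 2 from 26457903 to 26516663 on the minus strand of GRCm38. WT samples gave 2594, 2613 and 2522 normalized counts, and Setd5 +/- samples gave 7823, 7925 and 7828. The mutant values were thus all far above the WT values, with little spread within a genotype. The fold was 3.05, or a log2 ratio of 1.61 (1.56 to 1.66), higher than in 95.2% of the tested genes.

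Notch2 (ENSMUSG00000027878), a related receptor, lies on chromosome 3 from 98013527 to 98150361 on the plus strand. Its counts were 407.2, 412.8 and 434.8 in WT and 1504, 1431 and 1321 in Setd5 +/- samples. The lowest mutant sample was again above the highest WT sample, and the fold of 3.39 (log2 ratio 1.76, 1.64 to 1.89) was the largest among the 10 genes.

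Notch3 (ENSMUSG00000038146), on chromosome 17 from 32120820 to 32166852, is a receptor best known from the mural cells of blood vessels. Its WT counts were 1497, 1483 and 1429, and its mutant counts were 1564, 1590 and 1705. These values did not overlap, but the difference was small, with a log2 ratio of 0.14 (0.06 to 0.22). Of 8 mural and mesenchymal markers, 1 was above the filter. The markers added up to 35.6 to 48.8 normalized counts per WT sample and 21.4 to 39.3 per mutant sample, Kcnj8 and Abcc9 had no reads in either library, and Pdgfrb had 2 reads in WT and 0 in the mutant.

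Because Notch1 and Notch2 were higher while Notch3 was nearly level, the balance of the receptors differed between the libraries. Such a balance does not depend on how libraries are scaled against each other. Notch1 had 1.75 times the normalized count of Notch3 in WT and 4.85 times in Setd5 +/-, a log2 difference of 1.47 (1.37 to 1.57). Per sample it was 1.73, 1.76 and 1.77 for WT against 5.003, 4.985 and 4.592 for the mutant. Per kb of principal transcript, the scale used here to compare genes, Notch1 made up 54.9% of the 3 receptors in WT and 71.1% in Setd5 +/-, whereas Notch3 went from 37.1% to 17.3%. These shares depend on the length used. Per kb of the merged exons of all transcripts, Notch1 was at 181.0 and Notch3 at 181.6 in WT, and at 552.2 and 200.2 in Setd5 +/-. The 3 receptors together were at 494.7 normalized counts per kb in WT and 1165 in Setd5 +/-, a fold of 2.36. Notch1 and Notch2 kept nearly the same proportion to each other, with Notch1 at 6.16 times the count of Notch2 in WT and 5.54 times in the mutant library, a log2 difference of −0.15 (−0.29 to −0.02).

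The annotated starts of Notch1 and Notch2 are shown first because these were the receptors with large differences. The sequences are the 250 bases before the RefSeq start, on the strand of the gene, and capitals mark matches to the N box, CACNAG, a hexamer that HES proteins can bind, searched on both strands.

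Notch1, chr2:26503823-26504072 (GRCm38.p6, minus strand): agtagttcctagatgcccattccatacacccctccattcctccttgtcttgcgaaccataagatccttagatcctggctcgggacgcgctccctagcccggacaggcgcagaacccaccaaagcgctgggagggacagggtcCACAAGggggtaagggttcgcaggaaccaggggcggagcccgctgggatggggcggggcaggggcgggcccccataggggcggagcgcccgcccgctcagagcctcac

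Notch2, chr3:98013288-98013537 (GRCm38.p6, plus strand): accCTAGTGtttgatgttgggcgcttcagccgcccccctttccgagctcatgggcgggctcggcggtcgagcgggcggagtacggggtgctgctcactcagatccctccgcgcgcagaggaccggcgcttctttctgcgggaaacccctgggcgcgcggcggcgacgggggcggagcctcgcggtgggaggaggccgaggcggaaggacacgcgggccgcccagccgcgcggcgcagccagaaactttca

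The Notch1 window precedes a RefSeq start that lies within the longer gene span given above. Each window held 1 N box, at 108 bases before the start in Notch1 and at 247 bases in Notch2, and Notch3 and Hes6 had matches too. An N box was found in 36.7% of 32851 windows of the same 250 bases over all RefSeq starts, so that a match here is common. Neither window held TGGGAA, the core of the RBPJ site, on either strand. A match describes the letters in these windows and says nothing of binding.

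The ligands went different ways. Dll1 (ENSMUSG00000014773), the Delta ligand that proneural factors activate, lies on chromosome 17 from 15367354 to 15376872. Normalized counts were 2254, 2230 and 2177 for WT and 3073, 3003 and 2929 for Setd5 +/- samples. All mutant values were above the WT values, at a log2 ratio of 0.43 (0.37 to 0.50), or 35.2% more.

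Dll3 (ENSMUSG00000003436), on chromosome 7 from 28293553 to 28302238, encodes a divergent Delta protein that acts mainly inside the cell and can inhibit Notch signalling in the same cell. The WT samples had 600.4, 564.2 and 602.9 and the mutant samples 461.2, 391.8 and 447.9 normalized counts. All mutant values were lower, with a log2 ratio of −0.44 (−0.59 to −0.29).

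Jag1 (ENSMUSG00000027276), on chromosome 2 from 137081456 to 137116644, encodes a Jagged ligand. It was at 369.0, 335.9 and 348.6 in WT and at 185.9, 207.2 and 215.6 normalized counts in Setd5 +/- samples. The highest mutant value was well below the lowest WT value, and the log2 ratio of −0.79 (−1.01 to −0.58) was lower than that of Dll3.

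Dll1 was the main ligand of the 3 in both libraries and more so in the mutant. It had 6.32 times the normalized count of Jag1 in WT and 14.79 times in Setd5 +/-, a log2 difference of 1.23 (1.01 to 1.45). Per kb of transcript, Dll1 made up 68.3% of these ligands in WT and 80.6% in Setd5 +/-, Dll3 24.8% and 15.9%, and Jag1 6.89% and 3.48%. The sum of the 3 per kb differed little, at 907.7 and 1040, since the higher Dll1 was set against the lower Dll3 and Jag1.

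**Figure D2:**
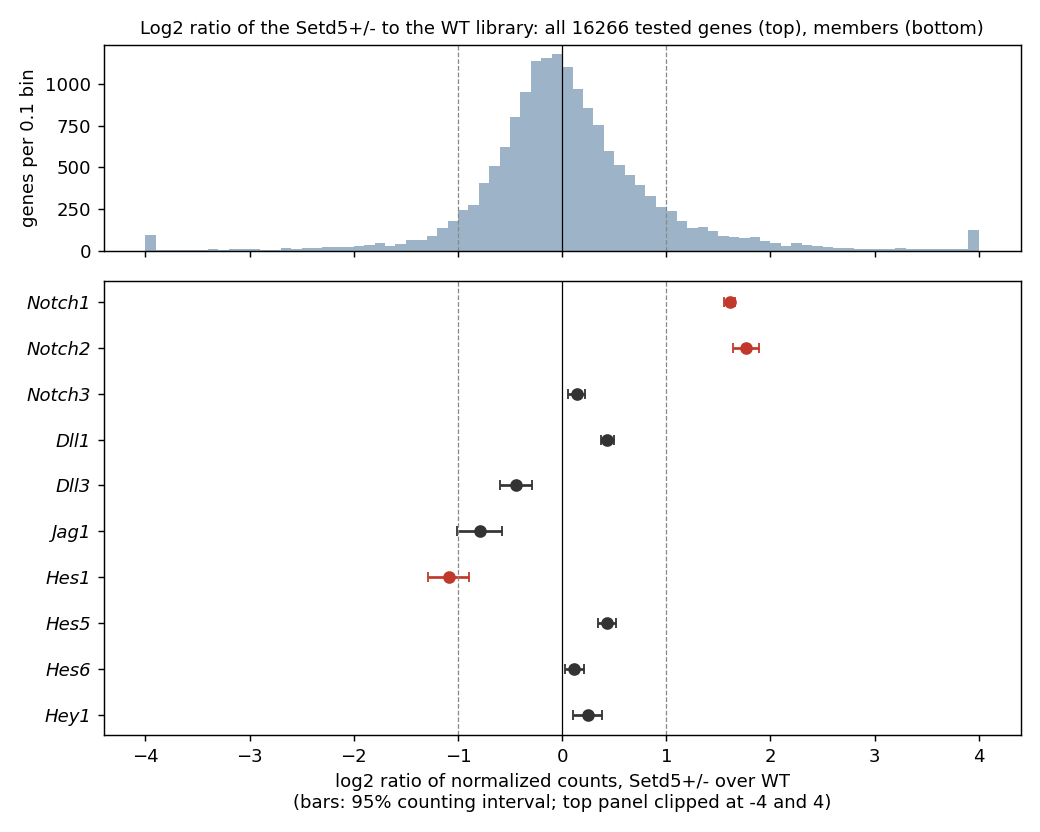
Top, log2 ratios (Setd5 +/- over WT library) of all 16266 tested genes in bins of 0.1. Bottom, the 10 genes with 95% counting intervals, with dashed lines at 2-fold. Notch1 (1.61) and Notch2 (1.76) lie past the upper line and Hes1 (−1.09) past the lower one, and the Hes1 interval (−1.29 to −0.89) reaches across that line. In the top panel the outermost bins also hold all ratios beyond the range drawn.

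Of the Hes genes, Hes1 and Hes5 went in opposite directions. Hes1 (ENSMUSG00000022528), a repressor of proneural genes that oscillates in progenitors, lies on chromosome 16 from 30064384 to 30067796. WT samples gave 457.7, 508.8 and 460.4 normalized counts, against 196.7, 228.6 and 245.4 from Setd5 +/- samples. The mutant values were all below WT, with a log2 ratio of −1.09 (−1.29 to −0.89), and only 5.2% of the tested genes had a ratio as low or lower. Its interval included ratios just short of 2-fold.

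Hes5 (ENSMUSG00000048001), the Hes gene most closely tied to Notch input in cortical progenitors, lies on chromosome 4 from 154960923 to 154962371. WT samples gave 1165, 1275 and 1225 normalized counts, against 1659, 1622 and 1669 for Setd5 +/-. The mutant values were all higher, at a log2 ratio of 0.43 (0.35 to 0.52), close to the ratio of Dll1.

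The count of Hes5 was therefore 2.57 times that of Hes1 in WT and 7.38 times in Setd5 +/-, a log2 difference of 1.52 (1.31 to 1.74) that no scaling between libraries changes. In the samples the ratio was 2.55, 2.51 and 2.66 against 8.44, 7.09 and 6.80. Hey1 (ENSMUSG00000040289), a related repressor on chromosome 3 from 8663359 to 8667256, was on the higher side, like Hes5. Its counts were 452.8, 512.1 and 516.8 in WT and 537.5, 645.4 and 571.8 in the mutant samples, which did not overlap but came close, and its log2 ratio was 0.24 (0.10 to 0.39).

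Hes6 (ENSMUSG00000067071) differs in role from the others, as its protein opposes HES1 and favours neuronal differentiation. It lies on chromosome 1 from 91411483 to 91414038. The WT samples had 1261, 1299 and 1197 and the mutant samples 1414, 1275 and 1385 normalized counts, so the groups overlapped, and the log2 ratio was 0.12 (0.03 to 0.21). Genes of chromosome 1 were higher as a group in the mutant library, with a median log2 ratio of 0.54 over 1044 tested genes against −0.04 elsewhere, and Hes6 lay 0.42 below that median, at a percentile of 26.2 among them. Its limma call was lost in several alternatives, among them scaling to the upper quartile. It was the only one of the 10 genes on that chromosome.

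The start region of Hes5 is shown because it alone among the members with a window held the RBPJ core. Capitals mark TGGGAA or its reverse complement.

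Hes5, chr4:154960673-154960922 (GRCm38.p6, plus strand): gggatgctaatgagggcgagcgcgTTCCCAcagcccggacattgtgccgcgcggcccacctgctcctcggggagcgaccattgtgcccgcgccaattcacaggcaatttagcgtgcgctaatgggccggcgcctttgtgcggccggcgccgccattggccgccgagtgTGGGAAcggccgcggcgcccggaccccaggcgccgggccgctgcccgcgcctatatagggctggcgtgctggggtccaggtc

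The matches begin 226 and 82 bases before the start, on opposite strands. The hexamer was present in 21.6% of the 32851 windows, and in none of the other windows of Notch1, Notch2, Notch3, Dll1, Dll3, Jag1 and Hes6. No window was at hand for Hes1 and Hey1.

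Per kb of transcript, the order of the 10 genes in WT was Hes5 (959.6 normalized counts per kb), Hes6 (938.2), Dll1 (620.1), Hes1 (324.0), Notch1 (271.5), Dll3 (225.0), Hey1 (203.8), Notch3 (183.3), Jag1 (62.6) and Notch2 (39.8). The counting intervals of the neighbours Hes5 and Hes6, and of Dll3 and Hey1, overlapped. In Setd5 +/- the order was Hes5 (1296), Hes6 (1017), Dll1 (838.2), Notch1 (828.3), Hey1 (241.4), Notch3 (202.0), Dll3 (165.6), Hes1 (152.3), Notch2 (135.1) and Jag1 (36.2). There the counting intervals of Dll1 and Notch1, of Dll3 and Hes1, and of Hes1 and Notch2 overlapped. The order depends on the length used. Over the merged exons of all transcripts, Notch1 was at 181.0 in WT, next to Notch3 at 181.6. In Setd5 +/- it was then at 552.2, below Dll1 at 711.5, and Hes1 at 109.8 was below Notch2 at 131.6.

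**Figure D3:**
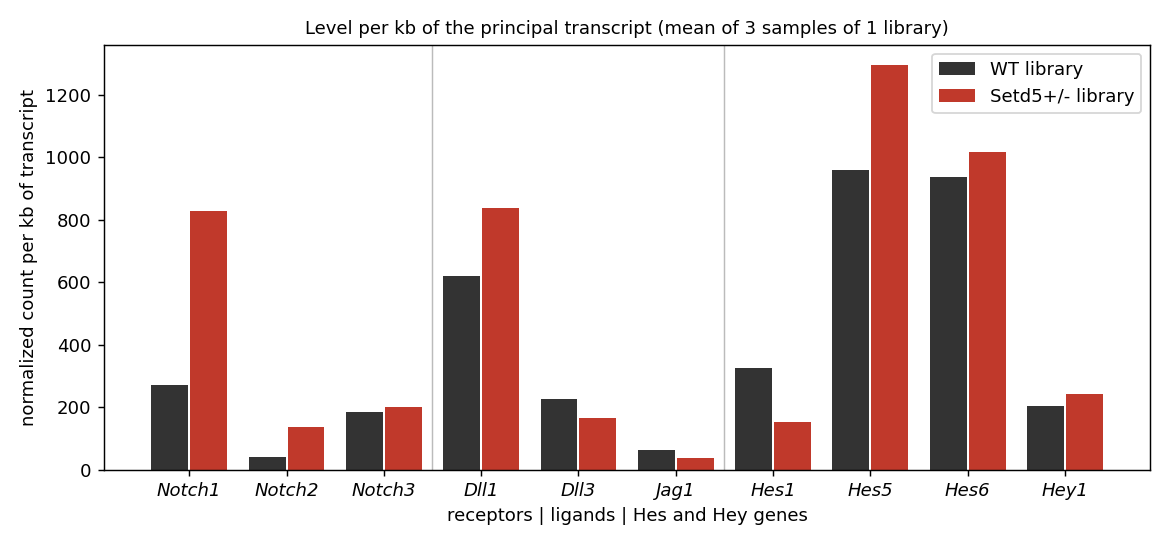
Mean normalized count of each gene per kb of its principal transcript in the WT and Setd5 +/- libraries, with no error bar because each bar is 1 library. Hes5 and Hes6 are the highest in both, and Notch1 goes from 271.5 to 828.3.

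Several of these genes overlap a gene on the opposite strand, and the strand setting of the counting is not given in the sources used here. For Notch1 these were 0610009E02Rik (log2 ratio 1.099) and Gm13568 (0.89), for Dll1 A930024N18Rik (0.49), for Hes5 Gm20421 (0.46) and for Notch3 Gm17276 (0.10, −0.24 to 0.44, with overlapping samples). Gm42820, on the same strand inside Notch2, had 16.0 normalized counts in WT and 71.5 in the mutant library. Reads of the pairs cannot be told apart. These genes held fewer normalized counts than their partners, 478.7 against 2576 for 0610009E02Rik and Notch1 in WT. Gm20421 came nearest to its partner Hes5, at 572.0 against 1222 in WT and 787.8 against 1650 in the mutant. The exons of this pair overlap over 433 bases, so the part of Gm20421 in the Hes5 values is not known. Beyond these overlapping genes, the one transcript match of at least 100 bases at 95% identity or more was between Notch3 and Gm9978, over 100 bases.

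Beyond these 10, 90 further Notch pathway genes were listed by role, of which 80 passed the filter. Of these, 13 were at least 2-fold higher and 6 at least 2-fold lower in the Setd5 +/- library, and 43 were higher and 37 lower in all, with a median log2 ratio of 0.14. Over all 16266 tested genes, 10.6% were at least 2-fold higher and 6.34% at least 2-fold lower. On chromosome 1 lay 5 of the 80, of which 3 were past 2-fold, all higher. Of all 1044 tested genes of that chromosome, 273 were higher and 30 lower past 2-fold. The 75 pathway genes elsewhere had a median of 0.01, with 10 higher and 6 lower past 2-fold. Of all 15222 tested genes elsewhere, 1446 were higher and 1002 lower past 2-fold.

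Other receptors and ligands were mostly weakly expressed, and 7 of 12 passed the filter. The well expressed ones were the contactin Cntn1, at 1240 and 1440 normalized counts, and Dner, a Delta-like surface protein of neural cells encoded on chromosome 1. Dner was at 1701 in the WT library and 4755 in the mutant library (log2 ratio 1.48, 1.42 to 1.55). Jag2 had 22.4, 13.2 and 14.9 in WT and 22.6, 40.5 and 51.2 in the mutant samples (1.18, 0.49 to 1.88). Egfl7, a secreted protein known from endothelial cells that can bind Notch, was at 3.87 and 53.2 (3.78, 2.66 to 5.15). Notch4 went the other way with 16.8 and 6.75 (−1.32, −2.61 to −0.19), as did Cntn6, another contactin, with 18.2 and 7.94 (−1.20, −2.38 to −0.14). Of 7 endothelial markers only Kdr passed the filter, at 6.35 normalized counts in WT and 17.9 in the mutant (1.49, 0.41 to 2.66). The 7 markers summed to 9.11 to 18.2 normalized counts per WT sample and 13.1 to 31.0 per mutant sample. Pecam1 had 2 reads in WT and 5 in the mutant, and Cdh5 and Cldn5 had 2 reads each in WT and 0 in the mutant.

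The genes for cutting the receptor were mostly higher. Of 10 tested genes 8 were higher, each with a counting interval above 0, the intervals of the other 2 included 0, and the median log2 ratio was 0.80. Over all tested genes, 5173 of 16266 had an interval above 0. Adam10, the main protease of the first of these cuts, was at 1652 normalized counts in WT and at 2927 in the mutant (0.83, 0.76 to 0.90), and Adam17 had 852.5 and 1470 (0.79, 0.69 to 0.88). In the gamma-secretase complex, which makes the second cut, nicastrin (Ncstn) was at 1051 and 2576 (1.29, 1.21 to 1.38) and Psen2 at 52.2 and 124.3 (1.25, 0.87 to 1.64), both past 2-fold and both on chromosome 1. Psenen had the lowest ratio (−0.25, −0.90 to 0.38). Without the pair on chromosome 1, the median of the 8 others was 0.77.

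Glycosyltransferases that modify Notch fell on both sides of 0, with 6 of 9 higher and 3 lower. The 3 lower genes were the Fringe enzymes, which tune the choice between Delta and Jagged ligands. Lfng had 1758 and 1152 normalized counts (log2 ratio −0.61, −0.70 to −0.52), with 1770, 1783 and 1721 per WT sample and 1110, 1224 and 1121 per mutant sample. Gxylt2, a xylosyltransferase, was highest (3.00, 2.43 to 3.63) at 16.0 and 128.3, and Eogt was at 67.9 and 203.3 (1.58, 1.27 to 1.90). Of the genes for ligand endocytosis, Epn2 was lowest, with 4710 and 1486 normalized counts (−1.66, −1.74 to −1.59). The ubiquitin ligases Neurl1a (1.63, 1.21 to 2.07) and Neurl1b (1.27, 1.02 to 1.52) were past 2-fold on the higher side.

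The nuclear factors differed less. Rbpj, the DNA-binding partner of all Notch receptors, gave 112.8, 125.8 and 125.9 normalized counts for WT and 104.9, 100.0 and 104.8 for Setd5 +/- (−0.23, −0.56 to 0.08), a difference that counting error could give. The 9 genes of this group had a median of −0.01, with Kat2a the lowest (−0.27, −0.41 to −0.13). Maml3, a coactivator, was the one past 2-fold (3.55, 2.33 to 5.07), from 3.31 to 38.9 normalized counts, while Maml2 was at 1177 and 1165. Among 14 corepressors none was past 2-fold, against 16.9% of all tested genes. They ranged from Tle4 (−0.49, −0.61 to −0.37) to Tle2 (0.86, 0.76 to 0.96).

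Of 15 negative regulators, 3 were past 2-fold and all were higher. Over all tested genes, 10.6% were at least 2-fold higher and 6.34% at least 2-fold lower. Chac1, which blocks the maturation of Notch1 and is also a known target of the stress factor ATF4, was at 5.52 normalized counts in WT and at 257.3 in the mutant (5.54, 4.64 to 6.62). Numbl was at 164.8 and 434.4 (1.40, 1.19 to 1.61), and its relative Numb was lower (−0.45, −0.69 to −0.21). The ubiquitin ligase Dtx3l was the third, at 71.8 and 156.1 (1.12, 0.79 to 1.45). Nrarp, a feedback inhibitor that Notch itself induces, was lower at 1312 and 802.1 (−0.71, −0.82 to −0.60), and Dtx1, also known as a Notch-induced gene, was the lowest of the group (−0.77, −0.94 to −0.60).

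Of 9 tested further genes listed here as targets of Notch, 8 had a log2 ratio below 0, 6 of them with a counting interval below 0, and the median was −0.97. Over all tested genes, 8313 of 16266 had a ratio below 0 and 5223 an interval below 0. Hes7 was at 11.3 and 9.53 normalized counts (−0.25, −1.41 to 0.85). Fabp7, a radial glia gene, went from 36015 to 11490 normalized counts (−1.65, −1.67 to −1.62) and Myc from 918.8 to 224.0 (−2.04, −2.22 to −1.85). Helt was at 17.7 and 8.74 (−1.02, −2.15 to 0.01), and Bhlhe40 was the one on the higher side (0.42, 0.32 to 0.53). Hes2 had no reads in either library, and Hes3, Hey2 and Heyl were below the filter. Fabp7 and Myc are also known to answer to other inputs.

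**Figure D4:**
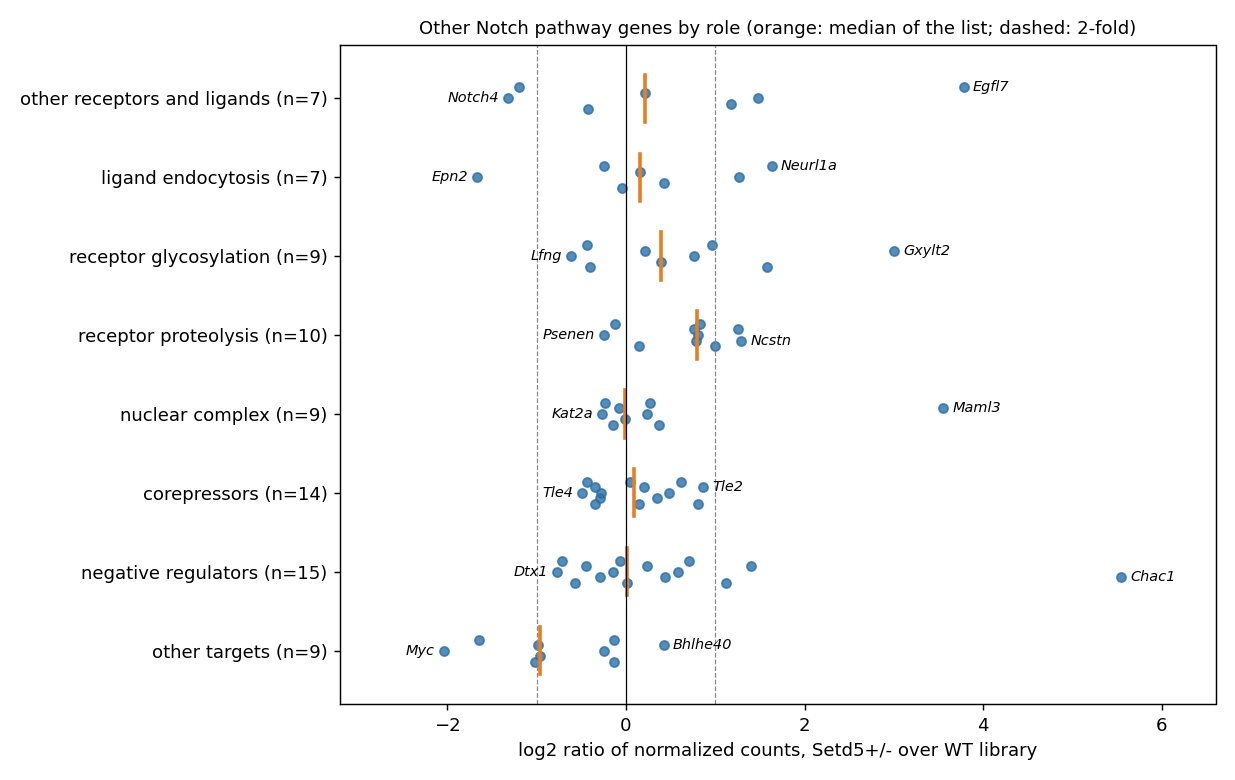
Log2 ratio (Setd5 +/- over WT library) of the 80 tested pathway genes outside the 10, each point 1 gene, by role, with the list median in orange and the lowest and highest gene named. The receptor proteolysis list has a median of 0.80 and the list of other targets one of −0.97.

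Of the proneural genes that HES proteins repress, 3 of 7 passed the filter. Insm1 was at 22.1 normalized counts in WT and at 34.2 in the mutant (log2 ratio 0.63, −0.03 to 1.29). Neurog2 had 262 reads in the WT library and 2 in the mutant library, or 72.3 and 0.795 normalized counts (log2 ratio −6.51, −11.82 to −4.01). Neurog1, Atoh1, Neurod1 and Neurod4 had no reads.

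Markers of other neural cell types also differed between the libraries, and in bulk RNA fewer cells of a type cannot be told apart from less RNA per cell. Over all 16266 tested genes, 10.6% were at least 2-fold higher, 6.34% were at least 2-fold lower, and 8313 had a ratio below 0. Of 6 tested neuron markers 4 were at least 2-fold lower, among them Dcx, yet their sum was 10520 to 10868 normalized counts per WT sample and 12547 to 12639 per mutant sample since Map2 made up most of it. The oligodendrocyte lineage genes had 4 of 7 lower and summed to 40997 to 41788 in WT and 23688 to 24533 in the mutant, with Sox10 at 1080 reads in WT and 4 in the mutant. Of 6 astrocyte markers 3 were at least 2-fold higher, Gfap, Aqp4 and S100b, and 2 at least 2-fold lower, Aldh1l1 and Slc1a2, and the sums were 11151 to 11281 and 9903 to 9960. Of 6 microglia markers 1 passed the filter, with sums of 78.6 to 118.6 and 51.2 to 70.3, and Cx3cr1 and Ptprc had no reads. The part of these markers in the Notch pathway values was not tested.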

How the data were processed

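RNA-seq of 6 NSC samples was used, 3 labelled WT and 3 labelled Setd5 +/-, all at 21% O2. Per the labels and methods, the authors trimmed reads with Trimmomatic, aligned them to mm10 with Bowtie2 and ran DESeq2. The read counter and its strand setting are not given in the sources used here. The authors deposited normalized counts, whose decimal points were lost. Columns of clone A3 were taken as Setd5 +/- because the study's supplementary copy of the table names them heterozygous. The table also holds the authors' own comparison (fold changes, errors, p-values), which was not used. The points were restored as the places that give whole reads (within 0.001 read), tested on simulated data. The deposited mean of all 6 samples matched in 52438 of 52438 genes, and in 1116 of them it was used to place a point. No other columns of sample values were left out.

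Among samples of a genotype, reads varied with a ratio of variance to mean of 1.97 (WT) and 1.94 (Setd5 +/-), near the 2 of pairs counted at both ends. Intervals are therefore exact binomial (Clopper-Pearson form) on reads divided by 2, for means of the 3 samples, and those of differences between 2 log2 ratios use the normal approximation. They cover counting error only. Genes averaging 10 or more normalized counts were tested, and called means past 2-fold. limma 3.58.1 in R 4.3.3 (log2 of the normalized count + 1, trend, Benjamini-Hochberg) was run across all genes. Positions and transcript lengths are from GENCODE M21 (GRCm38), copies were searched with blastn 2.17.0, and windows before start sites are from RefSeq, with 8 of the 10 genes matched.

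The rule named all 10 genes, Setd5, Rbpj, the highest and lowest gene of each pathway list, every pathway gene past 2-fold and the tested proneural genes. Some genes of these lists are not reported here. Others named were chosen after their values were seen. The members and lists were chosen with earlier results of these data known. Alternatives were other scalings, a pseudocount, other filters and folds, and leaving out each sample.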

Additional observations from a re-analysis of the deposited data

How the results depend on the processing

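The log2 ratios of the 10 genes kept their sign and stayed within their counting intervals in every alternative that recomputed the ratio. These were scaling to total reads, to the upper quartile or by genes outside chromosome 1 (shifts of −0.04, −0.01 and 0.03), a pseudocount of 1, and leaving out each sample. The count of 3 past 2-fold held under these, and was 4 at a fold of 1.5. Intervals with the measured variance leave the ratios as they are, and they left out 0 for all 10 genes. Leaving out each sample gave a median of the 10 ratios of 0.16 to 0.23, 18 to 21 pathway genes and 2773 to 2819 genes in all past 2-fold. At a fold of 1.5, 36 pathway genes and 5805 of all genes were called, instead of 19 and 2751. The count over all genes was 1640 with a mean of at least 50, and 5225 with no filter beyond a value above 0 in both libraries. With limma, all 10 members were past the threshold, and 3 when a 2-fold change was also required. Leaving out each sample gave 8 to 10 of these limma calls, with 8 without WT replicate 1, where Hey1 and Hes6 were lost. Otherwise only Hes6, or Hey1 without Setd5 +/- replicate 2, was lost. With the replicate number as a replicate block limma again called 10, and same-numbered samples did not deviate together (correlations −0.015 to 0.001 over 10651 genes), so the numbers do not pair them. With parts of 1 library per genotype, these alternatives say nothing of how cultures or clones vary.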
